A study of Homo sapiens with 17 samples.

Results

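The clade B serpins examined here are SERPINB2 and 9 further members of the family, chosen by gene symbol, which makes 10 of the 26457 genes listed in the deposited mRNA-seq table. The chromosome 18 members are SERPINB2, SERPINB3, SERPINB4, SERPINB5, SERPINB7, SERPINB8 and SERPINB10, and the chromosome 6 members are SERPINB1, SERPINB6 and SERPINB9. SERPINB2 was singled out because its mRNA differed so strongly between control and mutp53-depleted cells after TNF-α, so its own values are given as a description with no test. The other members were taken by family name, with earlier results of these data known. The table also lists 3 clade B genes outside this set, SERPINB11, SERPINB12 and SERPINB13, and the pseudogene SERPINB9P1, which are described for completeness.

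The cells were SW480, a human colon cancer cell line whose p53 is the mutant R273H (mutp53). Control cells carried a doxycycline-inducible shRNA against LacZ, a bacterial gene that human cells lack, and mutp53-depleted cells an inducible shRNA against p53. Both were stable lines grown with puromycin at 1.5 µg/ml and given doxycycline at 1 µg/ml, so the control cells also made a hairpin and met both drugs. Each line was harvested at 0 h or after 16 h of the inflammatory cytokine TNF-α at 12.5 ng/ml, which gives the groups control 0 h, control 16 h, mutp53-depleted 0 h and mutp53-depleted 16 h, with 2 biological replicates (A and B) in each. As there was 1 line per hairpin, an effect of the hairpin and a difference between the lines cannot be told apart.

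Serpins are protease inhibitors that offer a protease a bait loop, are cut, and then trap the enzyme in a distorted covalent complex. Clade B members lack a classical signal peptide and work largely inside cells, where many are thought to protect the cell from its own or incoming proteases. Human clade B genes lie in 2 clusters, and several are known from squamous epithelium or blood cells. SERPINB2, also called plasminogen activator inhibitor 2, inhibits urokinase and is known as a gene that inflammatory signals induce in monocytes and other cells.

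The libraries held 6108488 to 13809578 reads on genes. Values are the reads on a gene's exons scaled to the same total in every library (normalized reads), and 1 read equals 0.67 to 1.515 of them. The TNF-α targets NFKBIA, TNFAIP3 and BIRC3 rose with TNF-α in both lines. Their log2 responses were lower in mutp53-depleted than in control cells, by -1.43, -1.95 and -2.84 (limma, adjusted p = 2.6e-05, 0.011 and 1.5e-05). At 0 h their means were 122, 10.4 and 12.3 normalized reads in control and 210, 30.3 and 182 in mutp53-depleted cells. Of 8 colon epithelium markers each had a read in some library, KRT20 being near 0 with a mean of 2.11. Their sum was 66178 to 70708 normalized reads in control 0 h and 42729 to 43897 in mutp53-depleted 16 h cells. KRT8 and KRT18 were the most abundant, with means of 26675 and 26721 in control 0 h and 15807 and 14363 in mutp53-depleted 16 h cells. EPCAM fell between the same groups from 5831 to 2446, CDH1 from 476 to 60.2, CDX2 from 973 to 539 and VIL1 from 513 to 2.5. In mutp53-depleted 0 h cells these genes had means of 2385, 270, 1060 and 10.5. Between control 0 h and mutp53-depleted 16 h cells KRT19 went the other way, from 7254 to 10089, as did KRT20, from 0.755 to 6.0. In a bulk library, fewer cells of a kind and less RNA per cell cannot be told apart.

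RefSeq promoters (build GRCh38.p14, from 250 bases before to 50 after the start of the transcript) were found for 9 of the 10 members, all but SERPINB10. They are shown for SERPINB2, for its neighbour SERPINB8, which also rose with TNF-α, and for SERPINB1, the chromosome 6 member with the largest change after depletion. Capitals mark matches to TGANTCA, the core of an AP-1 site, and to TATAAA, the TATA box, searched on both strands.
SERPINB2, chr18:63887455-63887754, plus strand: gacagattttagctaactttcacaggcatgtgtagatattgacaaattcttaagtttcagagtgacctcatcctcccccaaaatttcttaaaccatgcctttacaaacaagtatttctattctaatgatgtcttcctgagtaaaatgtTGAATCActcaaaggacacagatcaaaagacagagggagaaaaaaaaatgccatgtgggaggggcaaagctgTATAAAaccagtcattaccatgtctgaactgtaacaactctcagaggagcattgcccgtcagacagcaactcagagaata
SERPINB8, chr18:63969831-63970130, plus strand: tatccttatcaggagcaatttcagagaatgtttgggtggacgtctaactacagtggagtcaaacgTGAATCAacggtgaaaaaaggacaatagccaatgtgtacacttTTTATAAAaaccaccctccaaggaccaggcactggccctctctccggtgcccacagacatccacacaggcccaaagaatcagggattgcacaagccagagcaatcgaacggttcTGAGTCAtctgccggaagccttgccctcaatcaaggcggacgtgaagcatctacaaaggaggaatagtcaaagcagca
SERPINB1, chr6:2841814-2842113, minus strand: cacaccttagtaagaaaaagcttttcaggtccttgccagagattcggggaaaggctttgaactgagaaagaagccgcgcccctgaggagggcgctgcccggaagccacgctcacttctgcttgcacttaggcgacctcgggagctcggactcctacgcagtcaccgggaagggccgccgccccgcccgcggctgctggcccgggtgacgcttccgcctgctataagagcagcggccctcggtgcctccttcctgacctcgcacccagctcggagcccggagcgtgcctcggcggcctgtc

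Counting the first transcribed base as 0, the SERPINB2 promoter held an AP-1 match at -102 to -96 and a TATA match at -30 to -25. The SERPINB8 promoter held AP-1 matches at -185 to -179 and at -28 to -22, and a pair of overlapping TATA matches, 1 on each strand, between -142 and -135. No match was found in the SERPINB1 window. Over the members, 5 of the 8 chromosome 18 promoters held an AP-1 match (those of SERPINB2, SERPINB5 and SERPINB8 and 2 of the 3 for SERPINB7) and 0 of the 6 chromosome 6 promoters did, beside 7.71% of all 35116 RefSeq promoters. A TATA match was held by 3 of the 8 and by 2 of the 6, beside 11.5% of all promoters. The 2 sets also differ in base composition, with a GC content of 29.7% to 59.7% on chromosome 18 and 47.7% to 76.7% on chromosome 6, and 4 of the chromosome 6 promoters belong to SERPINB6. The CRE motif TGACGTCA, present in 1.85% of all promoters, and the p53 half-site, in 6.63%, had no match in any member, and the NF-κB motif, in 11.3%, had 1 match, in a SERPINB7 promoter. These are matches of letters in short windows and do not show that a factor was bound.

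SERPINB2 mRNA (NM_002575; hg19 chromosome 18, 61554939 to 61571124, plus strand) was close to the limit of counting in 3 of the 4 groups and abundant in the fourth. In control cells it measured 5.08 and 3.03 normalized reads at 0 h (7 and 2 reads) and 21.3 and 5.69 at 16 h (22 and 4 reads). In mutp53-depleted cells it measured 2.01 and 2.74 at 0 h (3 and 2 reads) and 302 and 299.9 at 16 h (360 and 243 reads). Both mutp53-depleted 16 h libraries thus lay far above the other 6, which did not exceed 21.3. Control 16 h cells ranked next, then control 0 h and mutp53-depleted 0 h cells, but 5 of these 6 libraries held 7 reads or fewer, so their order rests on very few reads.

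On pooled reads, SERPINB2 was 20.1 times as abundant in mutp53-depleted as in control cells at 16 h, with a 95% exact interval of 13.6 to 31.0, and 0.51 times as abundant at 0 h, with an interval of 0.134 to 1.69. The 16 h to 0 h ratio was 3.39 (1.54 to 8.22) in control cells and 134 (57.0 to 413) in mutp53-depleted cells. These intervals cover counting error only, not the spread between replicates. As SERPINB2 was singled out for its levels in these libraries, the intervals are a description and not a test of a difference. With log2(normalized reads + 1), the scale of all log2 values here, the difference at 16 h was 4.63, and it was 5.50 without control 16 h replicate A and 3.76 without replicate B. The difference between the TNF-α responses of the 2 lines was 5.19, with a range of 4.32 to 6.06 over all alternatives. In control cells the response to TNF-α was 1.30, but 0.43 without replicate A.

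**Figure D1:**
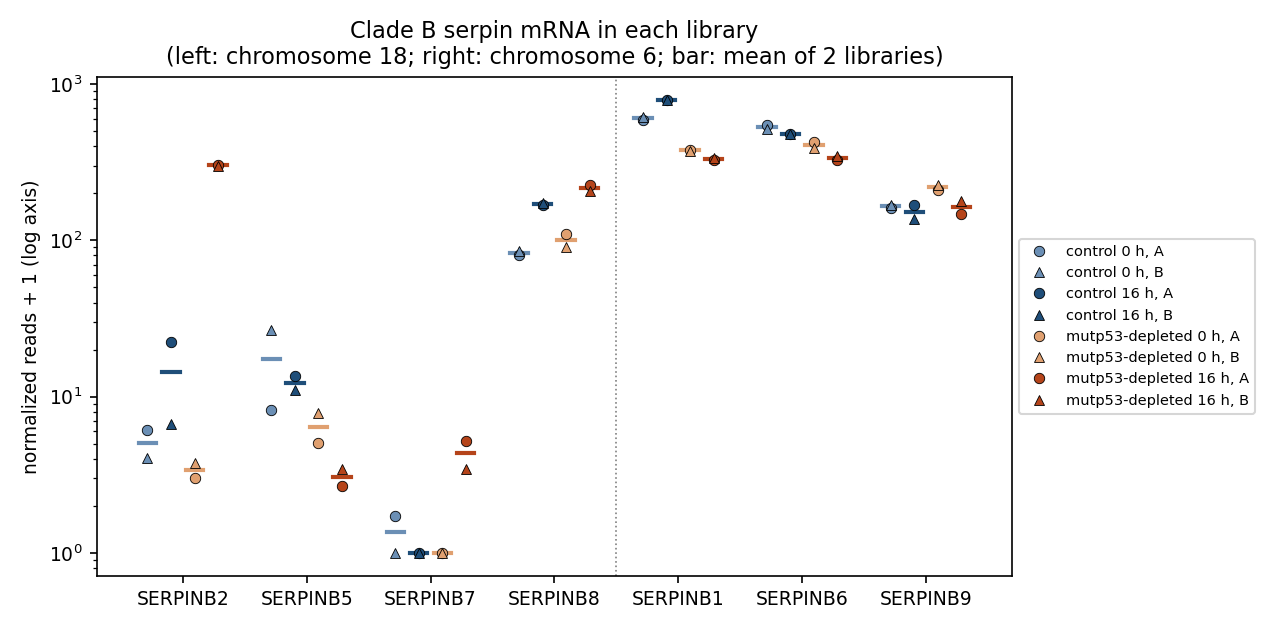
Normalized reads + 1 (log axis) of the 7 clade B members with any read, in each of the 8 libraries, with circles for replicate A, triangles for replicate B and a bar for the mean of the 2. SERPINB2 stood at 302 and 299.9 in mutp53-depleted 16 h cells and at 21.3 or less elsewhere, while SERPINB1 was lower in all 4 mutp53-depleted libraries than in any control library.

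The control 16 h replicates also differed for PLAU, which encodes urokinase, the protease that SERPINB2 inhibits. PLAU measured 781 and 454 normalized reads there. Replicate A was the higher for both genes. Sums over marker genes of other cell types moved too: the 9 blood cell markers summed to 47.0 to 60.2 normalized reads in control 0 h, 72.6 to 84.1 in control 16 h, 74.0 to 75.1 in mutp53-depleted 0 h and 116 to 117 in mutp53-depleted 16 h cells, with CD68 the most abundant there and PTPRC and S100A8 at 0 in every library. The 14 squamous markers, most of the signal being KRT5, summed to 33135 to 35926, 31232 to 31602, 26477 to 26655 and 18347 to 18737 in the same order, and 7 of them, including TP63 and KRT14, were at 0 in every library. The blood cell markers did not all move the same way. Between control 0 h and mutp53-depleted 16 h cells CD68 rose from 18.9 and 21.2 to 72.9 and 74.05 normalized reads. ITGAM rose from 0 in both libraries to 27.7 and 25.9. CD14 fell between the same groups, from 34.8 and 21.2 to 7.55 and 4.94, and CD3E and CSF1R were near 0 throughout. The part of the blood cell and squamous markers in the SERPINB2 result was not tested.

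The genes whose pattern over the 8 libraries was most like that of SERPINB2, by Pearson r of log2 values among 13123 genes with a mean of at least 10, were DUSP10 (0.987), ZYX (0.976), TRMT2A (0.975), EVA1A (0.974) and KLF16 (0.97). DUSP10, a phosphatase of stress-activated MAP kinases, measured 12.3 and 10.6 normalized reads in control 0 h, 26.1 and 15.7 in control 16 h, 9.38 and 13.7 in mutp53-depleted 0 h, and 56.2 and 60.5 in mutp53-depleted 16 h cells. The same 2 libraries were the highest for DUSP10 as for SERPINB2, over a much smaller range. ZYX, which encodes the focal adhesion protein zyxin, varied only from 2149 to 2990. The likeness is over libraries in 4 groups and was the basis on which these genes were chosen.

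SERPINB8, the next expressed clade B gene on chromosome 18 (NM_002640; 61637263 to 61656608, plus strand), encodes an inhibitor of the proprotein convertase furin. It measured 79.1 and 84.8 normalized reads in control 0 h, 166 and 172 in control 16 h, 109 and 89.1 in mutp53-depleted 0 h, and 224 and 207 in mutp53-depleted 16 h cells. Every 16 h library lay above every 0 h library. SERPINB8 rose with TNF-α in control cells, by 1.04 ± 0.15 (log2, SE; limma, adjusted p = 4.4e-05), and in mutp53-depleted cells, by 1.12 ± 0.15 (limma, adjusted p = 2.2e-05). The responses of the 2 lines differed by 0.09 ± 0.22 (limma, adjusted p = 0.91). After mutp53 depletion the differences were 0.26 ± 0.15 at 0 h and 0.35 ± 0.15 at 16 h (limma, adjusted p = 0.16 and 0.067). The TNF-α call is near the 2-fold limit: the value was 0.99 in control cells without control 0 h replicate A and 0.98 in mutp53-depleted cells without mutp53-depleted 0 h replicate B.

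SERPINB5, known as maspin, is a clade B member that does not inhibit proteases (NM_002639; 61144144 to 61172318, plus strand). It measured 7.26 and 25.8 normalized reads in control 0 h, 12.6 and 9.96 in control 16 h, 4.02 and 6.86 in mutp53-depleted 0 h, and 1.68 and 2.47 in mutp53-depleted 16 h cells. The control libraries were the higher at both times, but the whole gene rested on 62 reads and the control 0 h replicates lay far apart. SERPINB5 fell by 2.0 ± 0.58 on depletion at 16 h (limma, adjusted p = 0.0074), a call lost without control 16 h replicate A (limma, adjusted p = 0.055). At 0 h the difference was -1.24 ± 0.58 (limma, adjusted p = 0.080), and it was called in 2 of 16 alternatives, by edgeR's quasi-likelihood test (adjusted p = 0.044) and by limma without control 0 h replicate A (-2.09, adjusted p = 0.013). Without control 0 h replicate B it was -0.40 (limma, adjusted p = 0.67). TNF-α gave -0.29 ± 0.58 in control cells, with -1.13 and 0.56 without control 0 h replicate A and B, and -1.04 ± 0.58 in mutp53-depleted cells, with no call in any alternative. SERPINB5 and SERPINB2 were thus at opposite extremes in the mutp53-depleted 16 h libraries, which held the lowest SERPINB5 and the highest SERPINB2 values.

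SERPINB7, known as megsin (NM_003784; 61442609 to 61472610, plus strand), is the listed clade B gene next to SERPINB2 on the centromeric side. It had 5 and 2 reads in the mutp53-depleted 16 h libraries (4.19 and 2.47 normalized reads), 1 read in control 0 h replicate A and 0 in the other 5 libraries. Its mean of 0.924 was under the filter of 2.5, so it was not tested with the other members. Without the filter its fitted log2 difference was 2.09 for depletion at 16 h and 2.09 for TNF-α in mutp53-depleted cells (limma, adjusted p = 0.0034 and 0.0081), values that rest on 7 reads and depend on the added 1. The interaction without the filter did not pass (limma, adjusted p = 0.11).

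SERPINB3 and SERPINB4, the squamous cell carcinoma antigens, and SERPINB10, known from blood cells, were at 0 in all 8 libraries, as were SERPINB11, SERPINB12 and SERPINB13. A count of 0 allows up to 3 reads, which is 2.01 to 4.54 normalized reads depending on the library. Thus 4 of the 7 chromosome 18 members had a read anywhere, and 6 of the 10 clade B genes listed on that chromosome had none. SERPINB3 and SERPINB4 are alike in part: 24.2% of the 1704 different 50-base windows in SERPINB3 transcripts occur in SERPINB4, and 20.5% of the 2015 in SERPINB4 occur in SERPINB3. Reads from these shared windows could be split or dropped in counting, while the other windows are not shared between them. No other pair of clade B genes shared a window of that length, SERPINB2 included.

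The chromosome 6 members were all expressed in every library. SERPINB1 (NR_073111; chromosome 6, 2832566 to 2842283, minus strand), an inhibitor of neutrophil elastase and related proteases, measured 589 and 614 normalized reads in control 0 h, 795 and 789.6 in control 16 h, 380.0 and 370.2 in mutp53-depleted 0 h, and 328 and 336 in mutp53-depleted 16 h cells. No 2 groups overlapped. SERPINB1 fell by 1.25 ± 0.08 after mutp53 depletion at 16 h (limma, adjusted p = 9.7e-10), and was called in all 16 alternatives. At 0 h its difference of -0.68 ± 0.08 passed the adjusted p (limma, 2.3e-06) but not the 2-fold limit. TNF-α gave 0.40 ± 0.08 in control cells (limma, adjusted p = 0.0016, under 2-fold) and -0.18 ± 0.08 in mutp53-depleted cells (limma, adjusted p = 0.14).

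The TNF-α response of SERPINB1 was lower in mutp53-depleted than in control cells, by -0.57 ± 0.12 (limma, adjusted p = 0.011). It was the only one of the 5 tested members other than SERPINB2 whose responses differed between the lines, beside 2.86% of all genes tested. The adjusted p was 0.053 with DESeq2, 0.052 without control 0 h replicate A and 0.064 without mutp53-depleted 0 h replicate A.

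SERPINB6 (NM_001195291; 2948393 to 2972399, minus strand), which inhibits cathepsin G and trypsin-like proteases, varied less. It measured 547 and 515 normalized reads in control 0 h, 476 and 475 in control 16 h, 426 and 391 in mutp53-depleted 0 h, and 326 and 343 in mutp53-depleted 16 h cells. The 4 mutp53-depleted libraries were all below the 4 control libraries. The depletion differences of -0.38 ± 0.09 at 0 h and -0.51 ± 0.09 at 16 h passed the adjusted p (limma, 0.0019 and 0.00015) and not the fold limit.

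SERPINB9 (NM_004155; 2887500 to 2903546, minus strand), which inhibits granzyme B, measured 161 and 167 normalized reads in control 0 h, 167 and 137 in control 16 h, 209.8 and 226 in mutp53-depleted 0 h, and 147 and 178 in mutp53-depleted 16 h cells. The mutp53-depleted 0 h libraries were the highest, and the other 3 groups overlapped. The difference at 0 h was 0.41 ± 0.14 (limma, adjusted p = 0.024) and that at 16 h 0.09 ± 0.14 (limma, adjusted p = 0.61), both under 2-fold. The TNF-α difference was -0.43 ± 0.14 in mutp53-depleted cells (limma, adjusted p = 0.034) and -0.12 ± 0.14 in control cells (limma, adjusted p = 0.61). A non-coding gene on the opposite strand, LOC101927730, overlaps SERPINB9, and it had at most 1 read in any library.

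The pseudogene SERPINB9P1, between SERPINB1 and SERPINB9, measured 37.0 and 40.9 normalized reads in control 0 h, 24.2 and 41.3 in control 16 h, 14.1 and 15.1 in mutp53-depleted 0 h, and 12.6 and 12.3 in mutp53-depleted 16 h cells. All mutp53-depleted libraries were below all control libraries. It fell by 1.36 ± 0.34 at 0 h and by 1.28 ± 0.34 at 16 h (limma, adjusted p = 0.0023 and 0.0039), the latter a call lost without control 16 h replicate B (limma, adjusted p = 0.072). SERPINB9P1 shared no 50-base window with SERPINB9.

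Counted over the 5 members that were tested, which leaves out SERPINB2 and the 4 members below the filter, mutp53 depletion at 0 h changed 0 members at 2-fold, beside 15.4% of all 14800 genes tested (5.89% higher and 9.55% lower). At 0 h 4 of the 5 had an unadjusted limma p under 0.05, and edgeR's quasi-likelihood test called 1 and DESeq2 0. Depletion at 16 h lowered 2, SERPINB1 and SERPINB5, and raised 0, beside 15.2% of all genes changed, 10.2% lower and 5.03% higher. TNF-α raised 1, SERPINB8, in control cells, where 7.24% of all genes changed, 2.97% higher and 4.27% lower. It raised the same 1 in mutp53-depleted cells, where 6.36% changed, 1.86% higher and 4.5% lower. For the difference between the responses, which SERPINB1 passed, 2.86% of all genes passed, 0.655% higher and 2.21% lower. With 5 members, no count is read as particular to the family. Over the 3 chromosome 6 members depletion gave a median log2 difference of -0.38 (0 h) and -0.51 (16 h), beside 0.03 and -0.01 over all genes. These medians are the values of SERPINB6, and SERPINB9 went the other way, with 0.41 and 0.09. Over the 2 tested chromosome 18 members, SERPINB5 and SERPINB8, the medians were -0.49 and -0.83, with SERPINB8 the other way at 0.26 and 0.35.

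**Figure D2:**
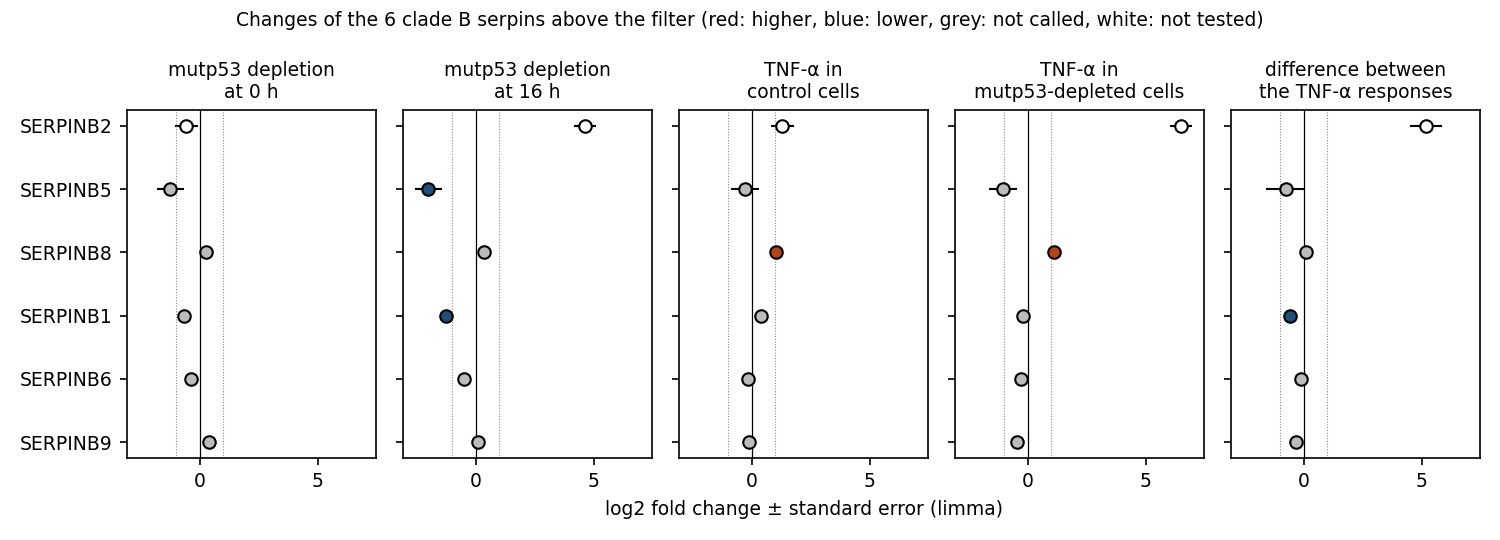
Log2 fold change ± standard error (limma) of the 6 clade B serpins above the filter in each of the 5 comparisons, with the dotted lines at 2-fold. SERPINB2 (white, not tested) lay at 4.63 for depletion at 16 h, while the other members lay between -2.0 (SERPINB5) and 0.35 (SERPINB8) in that panel.

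The 2 clusters were compared on levels per kb of exon, which allow genes of different length to be added. The summed chromosome 18 members measured 29.3 and 36.6 normalized reads per kb in control 0 h, 65.4 and 58.0 in control 16 h, 34.9 and 30.6 in mutp53-depleted 0 h, and 228 and 222 in mutp53-depleted 16 h cells. SERPINB8 made up 68.9% to 92.6% of the sum in the first 3 groups, and SERPINB2 made up 69.7% and 71.3% of it in mutp53-depleted 16 h cells. The summed chromosome 6 members measured 519 and 513, 559 and 549.5, 396 and 379, and 313 and 332 normalized reads per kb in the same order. Chromosome 6 thus gave the more clade B mRNA in every library, and its sum was lowest in the mutp53-depleted 16 h cells, where that of chromosome 18 was highest.

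**Figure D3:**
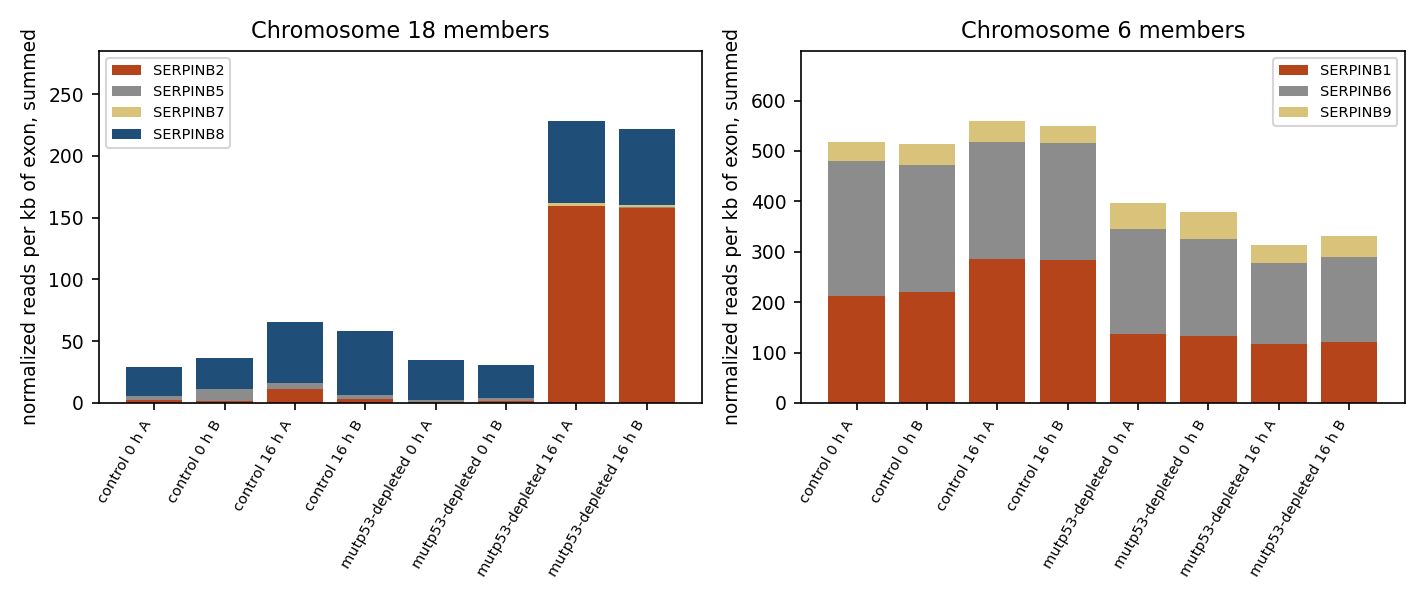
Normalized reads per kb of exon summed over the chromosome 18 members (left) and the chromosome 6 members (right), as stacked bars for each of the 8 libraries. In mutp53-depleted 16 h cells the left bars reach 228 and 222, mostly SERPINB2, and the right bars stand at 313 and 332.

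On the per-kb scale SERPINB2 itself went from 1.06 and 1.44 in mutp53-depleted 0 h cells, below SERPINB8 at 32.3 and 26.5, to 159 and 158 in mutp53-depleted 16 h cells, above SERPINB8 at 66.5 and 61.6. It then lay above SERPINB1, at 118 and 120.5, and close to SERPINB6, at 160.0 and 168. SERPINB2 was therefore among the most abundant clade B mRNAs in that group alone.

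The nearest tested genes around SERPINB2 did not stand near its value. The first gene outside the cluster on the one side was VPS4B, a component of membrane trafficking, at -499 kb from SERPINB2, with log2 differences of 0.30 at 0 h and -0.16 at 16 h after depletion. On the other side it was DSEL, 3619 kb away, with -3.20 and -0.01. Over the 25 tested neighbours on each side the median was 0.04 at 0 h and -0.06 at 16 h, beside 0.03 and -0.01 over all tested genes, and at 16 h 8 of these 50 had a difference of 1 or more and 2 of -1 or less. Within the cluster the 16 h differences ran from -2.0 for SERPINB5 to 4.63 for SERPINB2 and 0.35 for SERPINB8, 82.3 kb after it. For the chromosome 6 cluster the nearest were WRNIP1, with -0.17 and -0.07, and LINC01011, with -0.29 and -1.22, and the median over 35 neighbours was -0.14 at 0 h and -0.07 at 16 h.

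**Figure D4:**
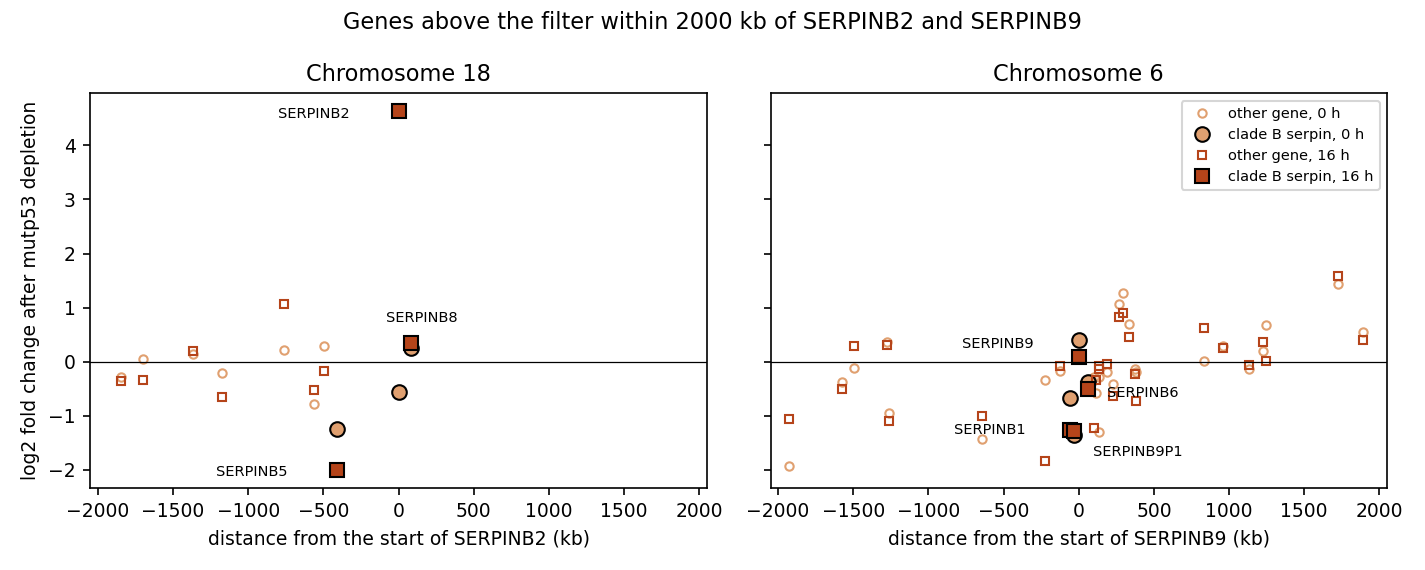
Log2 fold change after mutp53 depletion at 0 h (circles) and 16 h (squares) against distance in kb, for genes above the filter within 2000 kb of SERPINB2 (left) and SERPINB9 (right), with clade B serpins filled. SERPINB2 at 16 h, at 4.63, stands above every other gene shown. Genes farther away, such as ALPK2, are not shown.

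Proteases that clade B serpins are known to inhibit, and the urokinase receptor, formed a list of 13 genes, of which 10 were tested. PLAU measured 52.3 and 60.6 normalized reads in control 0 h, 781 and 454 in control 16 h, 61.0 and 59.0 in mutp53-depleted 0 h, and 1172 and 1196 in mutp53-depleted 16 h cells. Its level, like that of SERPINB2, was highest in the mutp53-depleted 16 h libraries, but unlike SERPINB2 it was high in both 16 h groups. PLAU rose by 3.38 ± 0.18 with TNF-α in control cells (limma, adjusted p = 7.5e-11) and by 4.28 ± 0.18 in mutp53-depleted cells (limma, adjusted p = 6.7e-12), with an adjusted p of 0.064 for the difference between those responses. The 16 h depletion difference of PLAU, 0.99 ± 0.18, was just under the fold limit (limma, adjusted p = 0.00013).

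TNF-α raised 5 of the 10 tested in control cells (CTSS, GZMB, PLAT, PLAU and PLAUR), beside 2.97% of all genes, and 4 in mutp53-depleted cells (CTSS, PLAT, PLAU and PLAUR), beside 1.86%. The list was chosen with earlier results of these data known, so whether such genes respond more often than others was not tested. The 2 counts were 4 and 5 with edgeR's quasi-likelihood test and 5 and 5 with DESeq2, and GZMB, with 1.02 ± 0.26 and 0.94 ± 0.26, lay at the fold limit in both lines (interaction -0.08 ± 0.36; limma, adjusted p = 0.95). Depletion raised CTSS, which encodes cathepsin S, and PLAT, the tissue plasminogen activator, at 0 h, beside 15.4% of all genes changed and 5.89% higher. At the 2-fold limit it changed 0 of the 10 at 16 h by limma, beside 15.2% of all genes. Of the 10, 5 had an unadjusted limma p under 0.05 there, and both edgeR's quasi-likelihood test and DESeq2 called 0. Under 2-fold, FURIN (-0.87), CTSV (-0.80), PLAU (0.99) and PLAUR (0.56) passed the adjusted p at 16 h (limma, 2.3e-07, 0.00058, 0.00013 and 0.0007). The median log2 difference over these 10 with TNF-α reached 0.52 in the control line and 0.64 in the mutp53-depleted line, beside -0.05 and -0.06 over all tested genes, and -0.01 for depletion at 16 h. The responses of CTSS and PLAT to TNF-α were lower in mutp53-depleted cells, by -3.71 and -2.05 (limma, adjusted p = 0.00016 and 0.0011). CTSS held 2 and 4 reads in the control 0 h libraries, so its value depends on the added 1. The depletion differences of CTSS and PLAT were 2.99 and 1.98 at 0 h. At 16 h they were -0.73 and -0.06 (limma, adjusted p = 0.081 and 0.83). FURIN, the target of SERPINB8, measured between 2982 and 3615 normalized reads in control and between 1693 and 2802 in mutp53-depleted cells. GZMB, the target of SERPINB9, measured between 22.7 and 61.7.

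Serpins of other clades served as the rest of the superfamily, with 23 genes listed and 10 tested. Among those that passed the test, SERPINE2 rose and SERPINF2 fell on depletion at 16 h, and with TNF-α in control cells SERPINA1, SERPINA2 and SERPINE2 rose and SERPINI1 fell. Over all genes, 5.03% were called higher and 10.2% lower in the first comparison, and 2.97% and 4.27% in the second. SERPINA2 held 39 reads over all libraries, so its value depends on the added 1. Over the 10 tested the median log2 difference was -0.25 for the first comparison and 0.73 for the second, beside -0.01 and -0.05 over all tested genes. SERPINH1 and SERPINA1 were among the 3 with the highest mean levels. SERPINE2, an inhibitor of thrombin and urokinase, rose with depletion by 2.0 ± 0.16 at 0 h and by 1.24 ± 0.16 at 16 h (limma, adjusted p = 7.2e-09 and 3.0e-06), and with TNF-α in control cells by 1.14 ± 0.16 (limma, adjusted p = 2.1e-05).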

How the data were processed

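mRNA-seq was done on SW480 cells in 4 groups of 2 biological replicates. The other samples of the series, ChIP-seq and GRO-seq, were not analysed here. Poly(A) RNA was made into strand-specific dUTP libraries and read as single 50-base reads. The authors aligned them with STAR and counted reads on RefSeq exons with HOMER. As signal values the authors deposited normalized reads, each a number of reads times a factor of its library, and whole reads were recovered for at least 99.97% of values (within 0.02 of a read). The exon length of each gene, another deposited column, was used for levels per kb. Further deposited columns hold the authors' own edgeR comparisons of the groups (log2 fold changes, p-values and adjusted p-values) and were not used. The table gives hg19 coordinates, while the methods and the labels' processing notes name hg38, so promoters (GRCh38.p14) were matched by gene symbol only. How reads with several matches were counted is not given in the sources used here.

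limma 3.58.1 in R 4.3.3 was run on log2(normalized reads + 1) over 14800 genes whose mean was 2.5 or more, with 1 model of the 4 group means and no covariate. A call needed an adjusted p (Benjamini-Hochberg) under 0.05 and at least a 2-fold change, and the interaction (TNF-α response of mutp53-depleted less that of control cells) at the adjusted p alone. All adjusted p-values are from this fit over all genes unless another tool is named. The members and gene lists were chosen with earlier results of these data known. Genes named are all clade B genes, 3 TNF-α targets, the listed proteases, the 3 most expressed serpins of other clades and those called in at least 3 of the 5 comparisons, the 5 genes most like SERPINB2, and the nearest tested neighbours. Some genes that this rule gives are not reported here. Reads on genes made up 74.5% to 79.5% of library totals, TMM factors lay between 0.97 and 1.03, and the 2 replicates within each group differed beyond sampling noise (chi-square per gene 2.07 to 3.93). Replicate letters did not pair the samples. Alternatives were median-ratio scaling, no filter, pseudocounts of 0.1 and 5, the letter as a block, edgeR 4.0.16 and DESeq2 1.42.0 on recovered reads, the regional median removed, and each library left out. The code was tested on simulated data. Python 3.11.15 was used for tables and plots.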

Additional observations from a re-analysis of the deposited data

Results flagged for a closer look

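The TNF-α response of SERPINB1 differed between the lines by the interaction term, at -0.57 ± 0.12 (log2, mutp53-depleted less control; limma, adjusted p = 0.011), with 0.40 in control and -0.18 in mutp53-depleted cells. The control 16 h libraries (795 and 789.6 normalized reads) lay above the control 0 h ones. The mutp53-depleted 16 h libraries (328 and 336) lay below the mutp53-depleted 0 h ones, a change with a limma adjusted p of 0.14. These are the values that gave the interaction term, so their order is a description and no further support. The interaction was called in 12 of 15 alternatives. Groups of 2 libraries are too small for a search for single outlying values.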

How the results depend on the processing

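No direction of a called member was turned by any alternative, and the replicate block, with the letters A and B as a term, changed no call: it left 0 members called for depletion at 0 h, 2 for depletion at 16 h, 1 for TNF-α in each line and 1 for the interaction. The letters did not pair the samples (correlation of deviations -0.02 to 0.07 over 6 pairs of groups). Over single libraries left out, the members called were 0 to 1 for depletion at 0 h, 1 to 2 for depletion at 16 h, 0 to 1 for TNF-α in control cells, 0 to 1 for TNF-α in mutp53-depleted cells and 0 to 1 for the interaction. The edgeR quasi-likelihood test called 1 for depletion at 0 h (SERPINB5), no filter gave 2 for TNF-α in mutp53-depleted cells and 3 for depletion at 16 h, of which 1 was higher (SERPINB7 added to both), and DESeq2 gave 0 for the interaction. The cause of these changes was not tested, other than that no filter tests more genes. With a pseudocount of 5 the SERPINB2 values were 5.38 for TNF-α in mutp53-depleted cells and 4.48 for the interaction. Over all alternatives for single genes, SERPINB2 and SERPINB9P1 included, 522 values did not change in whether they were called, 2 newly passed the call and 7 no longer passed. The other 8 were SERPINB2 values that moved by at least its spread between replicates. No call was made for SERPINB2, and its values that moved by less are among the 522. A value could move without a change of call: SERPINB5 for TNF-α in control cells ran from -1.13 to 0.56. SERPINB5 and SERPINB7, with 62 and 8 reads in all, are limited by depth, as is SERPINB2 outside the mutp53-depleted 16 h group.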

Other observations

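KRT6A, a keratin of stressed and squamous epithelium, had a higher TNF-α response in mutp53-depleted than in control cells, by 1.31 ± 0.34 (log2; limma, adjusted p = 0.048). It measured 68.2 and 59.1 normalized reads in control 0 h, 49.3 and 72.6 in control 16 h, 32.2 and 32.9 in mutp53-depleted 0 h, and 66.2 and 90.1 in mutp53-depleted 16 h cells, so the 16 h groups overlapped. Of the 14 squamous markers 3 were tested, and the other two had interactions of the opposite sign, -0.39 ± 0.11 for KRT5 and -0.96 ± 0.78 for KRT17 (limma, adjusted p = 0.067 and 0.66), with a median of -0.39 over the 3. Among the 25 tested genes before SERPINB2 the largest depletion differences were those of ALPK2, 6.43 at 0 h and 5.47 at 16 h, and RAB27B, 3.36 and 3.90, which unlike SERPINB2 were present at both times.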
